A study of Arabidopsis thaliana with 14 samples.

Results

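The WRKY transcription factors of Arabidopsis thaliana were followed through cold-priming and a later cold or high-light trigger. They were taken as every gene whose name in the expression table contains WRKY, in any case, which gave 70 of 27861 genes. Ratios between libraries were formed for the 38 of them with a mean of at least 1 FPKM over 14 libraries (FPKM, the number of sequenced fragments corrected for exon length and library size, so that levels of genes of different length can be compared). All plants were of the accession Col-0 in the vegetative state, grown in soil at 20 °C with short days. Primed plants (P) had spent 24 h at 4 °C followed by 5 d back at 20 °C, and control plants (C) had stayed at 20 °C. Both were harvested as whole rosettes before triggering (C0, P0), or after 30, 60 or 120 min of cold at 4 °C (a final C, as in P30C) or of high light at 800 µmol quanta m-2 s-1 (a final L, as in P30L). Each of the 14 conditions is 1 library from a pool of plants (at least 5 by the sample labels, 5 by the methods), and no condition has a replicate.

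WRKY proteins are plant transcription factors that bind the W-box, a promoter element built on the letters TTGAC, through a domain with a conserved heptapeptide and a zinc finger. The family is divided by the number of these domains and the type of zinc finger into groups I, IIa to IIe and III. In leaves its members are known from defence against pathogens, salicylic acid (SA) and jasmonic acid signalling and senescence, and from responses to heat, cold, drought and strong light. Many WRKY genes carry W-boxes themselves and are targets of other WRKY proteins.

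With 1 library per condition, no ratio carries an error or a p-value, and differences between plants of 1 condition cannot be told apart from differences between conditions. "Rose", "fell", "higher" and "lower" therefore mean only that a ratio of 2 libraries reached 1.5-fold (0.58 on the log2 scale), and all ratios are log2 ratios of FPKM. Untriggered plants were sampled only at the start, so a ratio of a triggered control library to C0 also holds any change with the time of day, and all such ratios share the C0 library. In whole rosettes, fewer cells with a transcript and less of it per cell cannot be told apart. FPKM values added up to 700526 (C60L) to 744648 (P120C) per library, and relative depth, read from the steps between FPKM values of 868 weak genes, ranged from 0.933 (P120C) to 1.45 (P30L) of that of C0, with 78.7% of values within 0.1 of a whole multiple. The leaf markers RBCS1A, LHCB1.3 and CA1 were highly expressed throughout (at least 2382 FPKM). The root hair markers EXPA7 and COBL9 stayed at or below 0.07 FPKM and the floral genes AP3, PI and SEP3 at or below 0.20. Of the same lists, the root genes CASP1 and SHR reached 0.65 and 3.76 FPKM and the floral gene AG 2.66.

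The 38 members with ratios covered every group. They comprised 10 of 13 in group I, 3 of 3 in group IIa, 2 of 8 in group IIb, 6 of 17 in group IIc, 6 of 7 in group IId, 3 of 7 in group IIe and 6 of 11 in group III, together with 2 genes that carry no WRKY number. Mean levels ran from 1.16 FPKM (WRKY23) to 52.7 (WRKY18), 20 members reached 5 and 12 reached 10. WRKY18, WRKY70 (51.7), AT1G64140 (44.1) and WRKY11 (43.5) were the most abundant, followed by WRKY33 (27.0271), WRKY15 (20.7), WRKY54 (18.2), WRKY20 (17.3), WRKY40 (16.3) and WRKY3 (11.8). Members of like abundance differed in their range. WRKY20 stayed between 15.3 (C120L) and 19.2 FPKM (P30C), whereas WRKY54, at nearly the same mean, spanned 3.08 (C30L) to 41.2 (P60C), the widest range on the log2 scale (3.74) among the 20 members with a mean of at least 5.

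**Figure D1:**
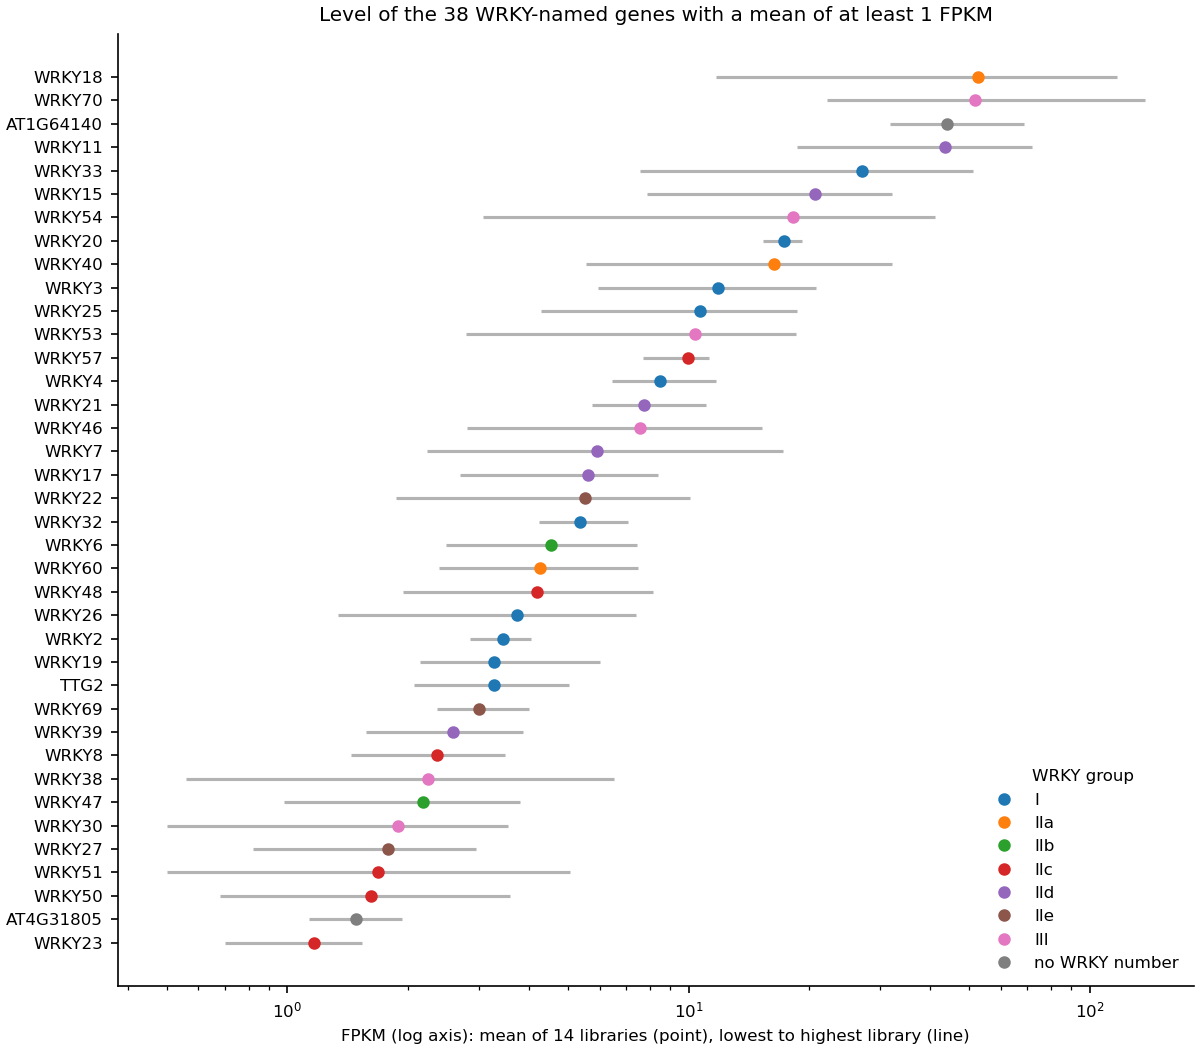
Level of each of the 38 WRKY-named genes in FPKM on a log axis. Points are means over the 14 libraries, lines run from the lowest to the highest library, and colours give the WRKY group. WRKY18 and WRKY70 have the highest means, and WRKY20, WRKY57 and WRKY2 the shortest lines.

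The promoters were inspected because many WRKY genes are themselves WRKY targets. In the 250 bases before the gene start (RefSeq annotation of TAIR10.1, all 70 members matched by locus), the W-box TTGACC or TTGACT was present on either strand in 12 of the 38 promoters (31.6%), compared with 27.5% of 16751 promoters of genes with a mean of at least 1 FPKM. At least 2 W-boxes were present in 6 of the 38 (15.8%), compared with 5.84%. The shorter core TTGAC, which lies inside every W-box counted, was found in 20 of the 38 (52.6%, all genes 44.2%), the G-box CACGTG in 5 (13.2%, all genes 7.56%) and CCGAC, the core of the element bound by CBF proteins, in 1 (2.63%, all genes 13.5%). The 4 promoters below were chosen after the values were seen. The members that rose at 30 min of both triggers in control plants were WRKY6, WRKY11, WRKY30, WRKY33 and WRKY53, with 0, 1, 3, 2 and 2 W-boxes in this window. WRKY30, WRKY33 and WRKY53 are shown because they hold the most of these 5, and WRKY18, the most abundant member, because it holds none, so that these 4 do not stand for the family. They are printed 5′ to 3′ on the strand of the gene and end at the base before its start, with W-boxes (also as the reverse complement GGTCAA or AGTCAA) in capitals. They lie in TAIR10.1 at chr5:8154711-8154960 (minus strand), chr2:16107985-16108234 (plus strand), chr4:12393983-12394232 (minus strand) and chr4:15382527-15382776 (plus strand).
WRKY30: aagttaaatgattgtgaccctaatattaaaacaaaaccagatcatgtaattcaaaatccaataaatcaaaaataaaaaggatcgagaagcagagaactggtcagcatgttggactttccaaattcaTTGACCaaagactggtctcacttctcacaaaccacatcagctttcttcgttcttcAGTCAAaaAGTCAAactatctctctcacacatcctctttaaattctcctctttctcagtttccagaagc
WRKY33: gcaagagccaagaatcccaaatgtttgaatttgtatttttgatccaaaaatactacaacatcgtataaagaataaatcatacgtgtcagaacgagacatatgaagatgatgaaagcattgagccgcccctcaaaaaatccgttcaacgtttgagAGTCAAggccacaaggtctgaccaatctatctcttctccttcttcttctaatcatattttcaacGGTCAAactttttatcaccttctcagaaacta
WRKY53: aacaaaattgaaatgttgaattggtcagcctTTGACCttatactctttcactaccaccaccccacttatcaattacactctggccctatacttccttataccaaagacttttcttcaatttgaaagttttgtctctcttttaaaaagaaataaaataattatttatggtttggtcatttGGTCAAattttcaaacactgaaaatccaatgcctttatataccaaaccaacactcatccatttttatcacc
WRKY18: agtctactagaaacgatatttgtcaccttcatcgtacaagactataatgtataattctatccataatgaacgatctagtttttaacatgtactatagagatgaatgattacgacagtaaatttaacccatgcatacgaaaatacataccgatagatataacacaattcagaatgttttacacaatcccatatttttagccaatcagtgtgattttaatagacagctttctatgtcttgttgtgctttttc
A match describes letters only, and binding at these promoters was not measured.

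The first question was how the family responded to cold in plants that had not been primed. Transcripts of 25 of the 38 members passed 1.5-fold in cold at 1 or more times, compared with 27.3% of all genes with a mean of at least 1 FPKM. Of these, 21 rose at some time (all genes 11.9%) and 4 fell (all genes 16.2%). After 30 min 16 members had risen and 3 had fallen (all genes 4.73% and 7.87%), after 60 min 18 had risen and none had fallen (7.42% and 5.62%), and after 120 min 16 had risen and 1 had fallen (8.87% and 10.3%). The median ratio of the 38 was 0.37, 0.49 and 0.35 at the 3 times, while that of all genes was -0.12, -0.06 and -0.09. The 12 members that were higher at all 3 times (all genes 2.82%) were WRKY6, WRKY11, WRKY18, WRKY25, WRKY26, WRKY30, WRKY33, WRKY38, WRKY40, WRKY48, WRKY53 and WRKY54.

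**Figure D2:**
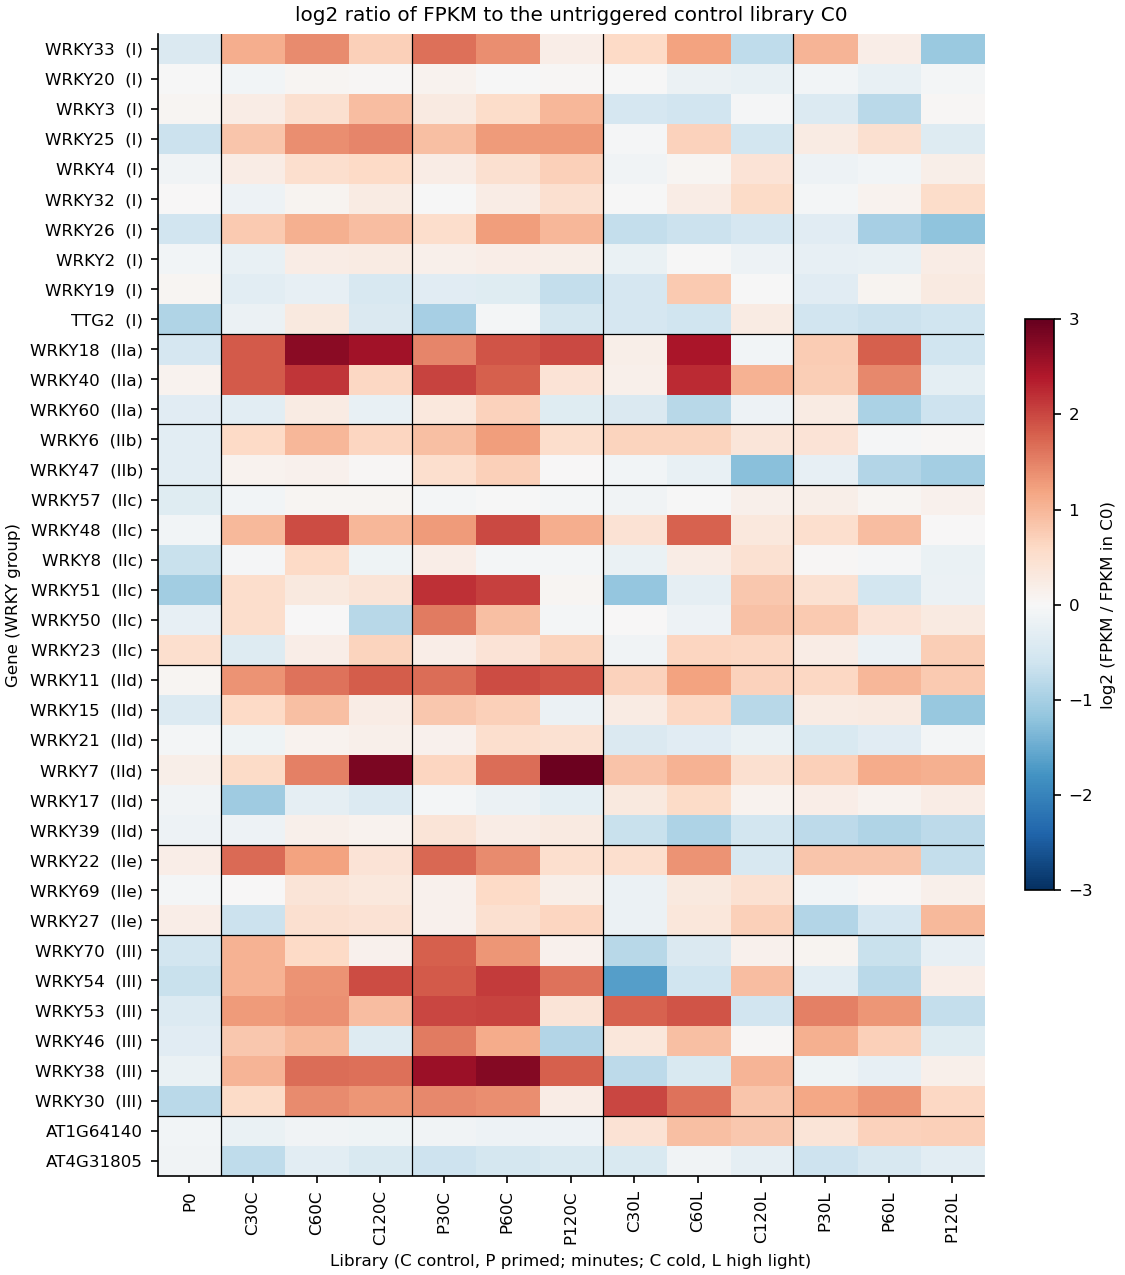
Log2 ratio of FPKM to the untriggered control library C0 for the 38 genes (rows, ordered by WRKY group) in the other 13 libraries (columns). Red is higher and blue lower than C0. WRKY18 and WRKY40 of group IIa are red in the cold columns and the group III rows in those of 30 and 60 min, whereas WRKY54, WRKY70 and WRKY38 turn blue in C30L.

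WRKY18, WRKY40 and WRKY60 form group IIa, closely related W-box-binding factors that act partly redundantly in defence and abscisic acid responses. WRKY18 was at 17.8 FPKM in C0, at 12.6 in P0, and at 30, 60 and 120 min of cold at 64, 117 and 102 in control plants and 49.5, 65.7 and 70.8 in primed plants. Under high light, WRKY18 was at 20.3, 97.6 and 16.7 FPKM in control plants and 30.2, 61.4 and 11.7 in primed plants. WRKY18 was the most abundant of the 70 transcripts in C60C, C120C, P120C, C60L and P60L, and low in C0, P0, C30L, C120L and P120L. Its ratio to C0 in control plants was 1.84, 2.72 and 2.52 in cold.

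WRKY40 was at 6.82 FPKM in C0, at 7.38 in P0, and at 30, 60 and 120 min of cold at 24.6, 30.04 and 10.4 in control plants and 27.8, 23.5 and 9.02 in primed plants. Under high light, WRKY40 was at 7.54, 32.2 and 14.02 FPKM in control plants and 11.3, 18.6 and 5.54 in primed plants. Like WRKY18, WRKY40 was high at 60 min of both triggers, but by 120 min of cold its ratio to C0 had declined to 0.61 from 2.14 at 60 min. WRKY60 was at 4.64 FPKM in C0, at 3.68 in P0, and at 30, 60 and 120 min of cold at 3.74, 5.49 and 3.98 in control plants and 5.76, 7.49 and 3.62 in primed plants. Under high light, WRKY60 was at 3.43, 2.6 and 4.16 FPKM in control plants and 5.52, 2.39 and 3.03 in primed plants. WRKY60 stayed within 1.5-fold of C0 in control plants in cold and was highest in P60C and P30C. Over the 14 libraries, Pearson's r with WRKY40 was 0.73 for WRKY18 and 0.22 for WRKY60, and that of WRKY18 with WRKY60 was 0.10. These coefficients come from the same 14 libraries and are descriptions.

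Group III holds regulators of SA signalling and senescence. All 6 of its measured members rose at 30 and 60 min of cold in control plants (medians 1.03 and 1.36) and 4 of 6 were higher at 120 min, with WRKY30 at 30 min exactly at 1.5-fold. WRKY70 and WRKY54 are related genes that act together in SA-dependent defence and as negative regulators of senescence. WRKY70 was at 39.4 FPKM in C0, at 27 in P0, and at 30, 60 and 120 min of cold at 81.8, 59.5 and 43.3 in control plants and 137, 98.3 and 43.02 in primed plants. Under high light, WRKY70 was at 22.1, 29.01 and 43.1 FPKM in control plants and 41.96, 24.8 and 33.4 in primed plants. In cold the highest values of WRKY70 came at 30 min, in primed plants above control plants, and both were back near C0 by 120 min. WRKY54 was at 9.61 FPKM in C0, at 6.09 in P0, and at 30, 60 and 120 min of cold at 19.7, 24.6 and 37.5 in control plants and 34.6, 41.2 and 29.7 in primed plants. Under high light, WRKY54 was at 3.08, 6.38 and 18.2 FPKM in control plants and 7.67, 5.52 and 11 in primed plants. WRKY54 climbed through all 3 times of cold in control plants, whereas in primed plants its maximum came at 60 min. The r of WRKY54 with WRKY70 was 0.81 over the 14 libraries.

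WRKY53, a regulator of leaf senescence, responded to both triggers. WRKY53 was at 4.58 FPKM in C0, at 3.47 in P0, and at 30, 60 and 120 min of cold at 11.1, 11.8 and 8.74 in control plants and 18.5, 18.5 and 5.95 in primed plants. Under high light, WRKY53 was at 15.6, 16.8 and 3.09 FPKM in control plants and 13.1, 11.5 and 2.78 in primed plants. It was high in all libraries of 30 and 60 min and low at the start and after 120 min of light. The annotated WRKY53 gene shares 341 bases with AT4G23800 on the other strand (6.67 to 11.2 FPKM over the libraries), and whether counting used strand is not given in the sources used here, so that reads from these bases cannot be told apart.

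WRKY46 acts with WRKY54 and WRKY70 in SA-dependent defence and in brassinosteroid-regulated growth. WRKY46 was at 5.15 FPKM in C0, at 4.07 in P0, and at 30, 60 and 120 min of cold at 8.97, 10.2 and 3.93 in control plants and 15.3, 11.2 and 2.8 in primed plants. Under high light, WRKY46 was at 6.49, 9.66 and 5.26 FPKM in control plants and 10.8, 8.39 and 4.03 in primed plants. It rose at 30 and 60 min of cold and 60 min of light in control plants, stayed inside 1.5-fold in C30L (0.33) and was below C0 at 120 min of cold (ratio -0.39 in control plants). WRKY38 and WRKY62 encode SA-inducible negative regulators of basal defence. WRKY38 was at 0.96 FPKM in C0, at 0.84 in P0, and at 30, 60 and 120 min of cold at 1.96, 3.08 and 3.01 in control plants and 5.73, 6.52 and 3.35 in primed plants. Under high light, WRKY38 was at 0.56, 0.7 and 1.95 FPKM in control plants and 0.88, 0.81 and 1.06 in primed plants. WRKY38 was highest in P60C and P30C, and in light it stayed at or below 1.06 FPKM except in C120L. WRKY62 had a mean of 0.91 FPKM and was given no ratio. WRKY62 was at 0.32 FPKM in C0, at 0.21 in P0, and at 30, 60 and 120 min of cold at 0.66, 1.08 and 1.48 in control plants and 3.54, 0.93 and 0.65 in primed plants. Under high light, WRKY62 was at 0.31, 0.55 and 1.7 FPKM in control plants and 0.42, 0.51 and 0.34 in primed plants. P30C was its single library above 2 FPKM, and its r with WRKY38 was 0.78.

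In group I, WRKY33 is a substrate of the MAP kinases MPK3 and MPK6 that activates camalexin synthesis and is required for resistance to necrotrophic fungi. WRKY33 was at 16.3 FPKM in C0, at 12.04 in P0, and at 30, 60 and 120 min of cold at 34.8, 43.6 and 26.95 in control plants and 51.1, 42.98 and 18.7 in primed plants. Under high light, WRKY33 was at 24.9, 37.97 and 9.68 FPKM in control plants and 32.9, 18.8 and 7.58 in primed plants. The transcript was high at 30 and 60 min of cold and lowest after 120 min of light. The gene overlaps AT2G38480 by 26 bases and AT2G08965 by 272 bases on the other strand (at most 19.6 and 0.30 FPKM). WRKY25 and WRKY26, which act with WRKY33 in the response to heat, also rose in cold. WRKY25 was at 6.75 FPKM in C0, at 4.29 in P0, and at 30, 60 and 120 min of cold at 11.96, 17.8 and 18.7 in control plants and 12.6, 16.4 and 16.5 in primed plants. Under high light, WRKY25 was at 6.58, 10.9 and 4.62 FPKM in control plants and 8.04, 9.45 and 5.14 in primed plants. WRKY25 still stood near its maximum after 120 min of cold, when WRKY33 had declined. WRKY26 was at ratios of 0.79, 1.07 and 0.92 in cold, and r with WRKY25 was 0.82.

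WRKY3 and WRKY4, a pair with roles in resistance to necrotrophs, increased late. WRKY3 reached 0.93 and WRKY4 0.60 at 120 min of cold, with no earlier call. WRKY4 was at 7.2 FPKM in C0, at 6.7 in P0, and at 30, 60 and 120 min of cold at 8.41, 10.2 and 10.9 in control plants and 8.46, 10.08 and 11.7 in primed plants. Under high light, WRKY4 was at 6.65, 7.46 and 9.64 FPKM in control plants and 6.43, 6.84 and 8.1 in primed plants. WRKY4 moved in a narrow range, with its highest values in C120C and P120C. The other group I members passed no threshold in cold, and WRKY2, WRKY20 and WRKY32 lay between -0.22 and 0.25.

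Group IId members bind calmodulin. WRKY11 and WRKY17 are closely related and act as negative regulators of basal resistance, and their transcripts went opposite ways at 30 min of cold. WRKY11 was at 18.6 FPKM in C0, at 19.3 in P0, and at 30, 60 and 120 min of cold at 47.2, 57.8 and 65.3 in control plants and 59.1, 71.9 and 68.3 in primed plants. Under high light, WRKY11 was at 29.9, 43.2 and 30.3 FPKM in control plants and 28.7, 37.1 and 32.1 in primed plants. WRKY11 was lowest in the untriggered libraries and rose in all 6 triggered control libraries. WRKY17 was at 5.67 FPKM in C0, at 5.29 in P0, and at 30, 60 and 120 min of cold at 2.69, 4.7 and 4.3 in control plants and 5.48, 5.03 and 4.64 in primed plants. Under high light, WRKY17 was at 6.97, 8.39 and 6.1 FPKM in control plants and 6.47, 6.13 and 6.6 in primed plants. WRKY17 was lowest in C30C, where it had fallen (-1.08) while WRKY11 had risen (1.34), and r between them was -0.38. At 60 and 120 min of cold WRKY17 was inside 1.5-fold of C0 (-0.27 and -0.40), as it was at all 3 times of light, where both genes lay above C0.

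WRKY7, another calmodulin-binding member, showed a late increase in cold. WRKY7 was at 2.23 FPKM in C0, at 2.52 in P0, and at 30, 60 and 120 min of cold at 3.33, 6.31 and 15.7 in control plants and 3.48, 7.07 and 17.2 in primed plants. Under high light, WRKY7 was at 4.02, 4.58 and 3.11 FPKM in control plants and 3.64, 4.79 and 4.7 in primed plants. From C0 to C120C it rose by 2.81, the largest ratio to C0 in a control library among the 38 members with ratios. The primed plants were at nearly the same levels throughout the cold. WRKY15, a regulator of responses to osmotic and oxidative stress, rose at 30 and 60 min of cold (0.59 and 0.89). WRKY21 was at 7.84 FPKM in C0, at 7.54 in P0, and at 30, 60 and 120 min of cold at 7.13, 8.39 and 8.76 in control plants and 8.58, 11.1 and 10.7 in primed plants. Under high light, WRKY21 was at 5.8, 6.17 and 6.79 FPKM in control plants and 5.74, 6.15 and 7.49 in primed plants. WRKY21 passed no threshold under either trigger, and its largest ratio to C0 in cold was 0.16 in control plants.

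Of the remaining groups, WRKY22 (group IIe), which acts downstream of a flagellin-activated MAP kinase cascade, rose at 30 and 60 min of cold (1.70 and 1.20). WRKY22 was at 3.06 FPKM in C0, at 3.53 in P0, and at 30, 60 and 120 min of cold at 9.92, 7.03 and 4.09 in control plants and 10.06, 8.23 and 4.35 in primed plants. Under high light, WRKY22 was at 4.31, 7.74 and 2.2 FPKM in control plants and 5.46, 5.48 and 1.86 in primed plants. It was highest at 30 min of cold and lowest after 120 min of light. WRKY6 (group IIb) is known from senescence, pathogen responses and phosphate transport. WRKY6 was at 3.11 FPKM in C0, at 2.49 in P0, and at 30, 60 and 120 min of cold at 4.72, 6.18 and 4.87 in control plants and 5.79, 7.44 and 4.51 in primed plants. Under high light, WRKY6 was at 4.94, 4.93 and 4.03 FPKM in control plants and 4.16, 3.04 and 3.21 in primed plants. Its highest values were those of P60C and C60C. WRKY48 (group IIc), a negative regulator of basal resistance, rose by 0.96, 1.95 and 0.99 in cold. Falls in cold were few, namely WRKY17 and WRKY27 (-0.64) and the unnumbered AT4G31805 (-0.77) at 30 min and WRKY50 at 120 min (-0.83).

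**Figure D3:**
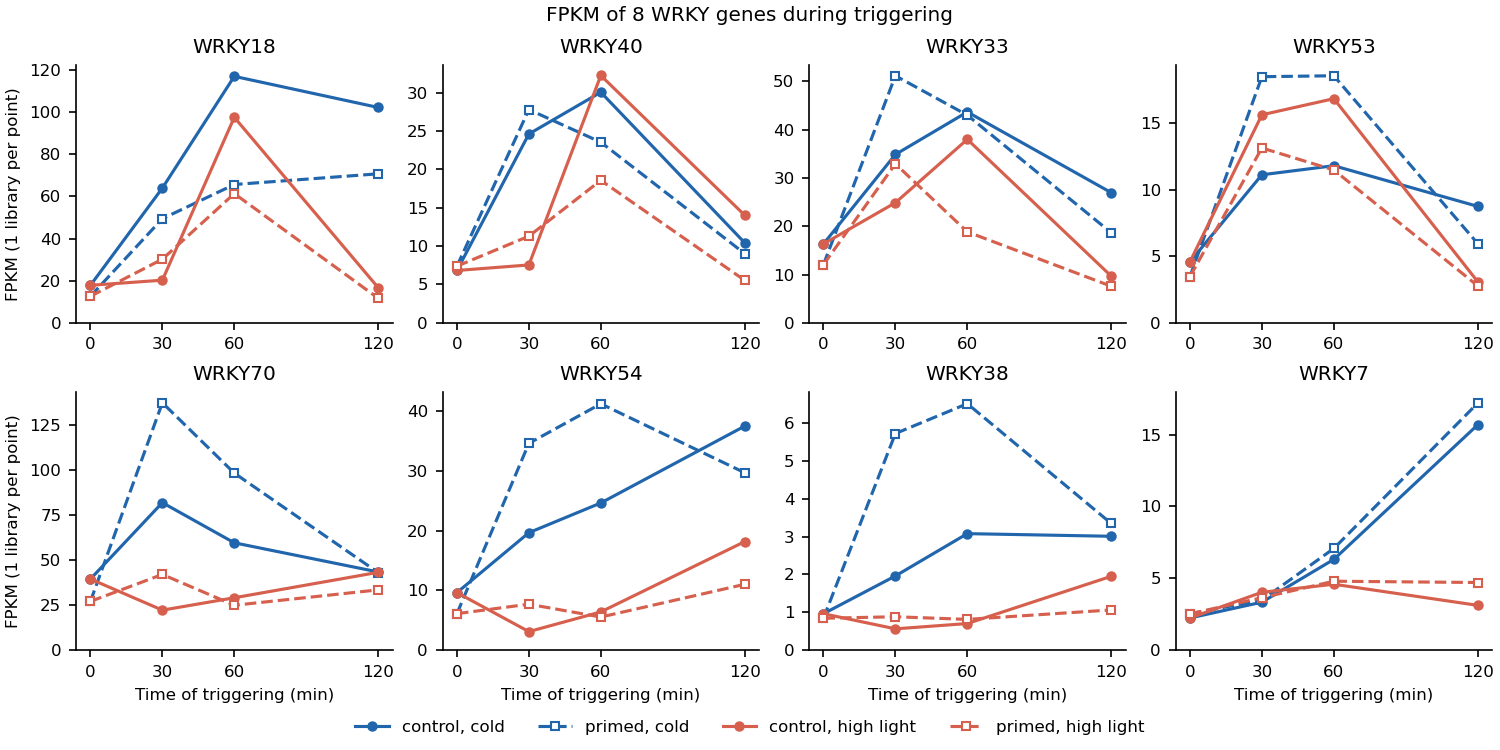
FPKM of 8 WRKY genes against the time of triggering in minutes, 1 library per point. Blue lines are cold and red lines high light, with filled circles for control and open squares for primed plants. In cold, primed plants lie above control plants for WRKY70, WRKY54 and WRKY38 at 30 and 60 min and below them for WRKY18 at all 3 times.

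The same comparison was made for high light in unprimed plants. The trigger moved 27 of the 38 members past 1.5-fold at 1 or more times (all genes 40.2%), of which 21 rose (18.6%) and 11 fell (23.3%) at some time. At 30 min 6 members had risen and 6 had fallen (all genes 4.91% and 8.21%), at 60 min 16 had risen and 5 had fallen (11.03% and 11.7%), and at 120 min 10 had risen and 3 had fallen (14.1% and 17.9%). Dividing each library by its mean over 8 reference genes changed the last split to 8 higher and 8 lower, as it shifts C120L/C0 by -0.12. The median ratio of the 38 was -0.09, 0.26 and 0.14, beside -0.07, -0.04 and -0.08 for all genes. WRKY11 and WRKY30 alone were higher at all 3 times of light (2 of 38, all genes 2.57%).

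Many of the light increases were transient and peaked at 60 min. In C60L, WRKY18 had risen by 2.45, WRKY40 by 2.24, WRKY53 by 1.88, WRKY48 by 1.76, WRKY22 by 1.34 and WRKY33 by 1.22. At 30 min WRKY18 and WRKY40 were still near C0 (0.18 and 0.14), whereas in cold they had already risen (1.84 and 1.85). By 120 min WRKY18 was back at -0.09, and WRKY33 (-0.75), WRKY15 (-0.82) and WRKY47 (-1.24) had fallen. WRKY30 and WRKY53 were the 2 members with the largest increase at 30 min of light (2.01 and 1.77).

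Group III was split in light at 30 min, with 2 of 6 members higher (WRKY30 and WRKY53) and 3 lower. The members that fell were WRKY54 (-1.64), WRKY70 (-0.83) and WRKY38 (-0.78), all of which had risen at 30 min of cold. At 120 min of light WRKY54 (0.92) and WRKY38 (1.02) were higher than C0. WRKY51, which with WRKY50 links SA and low oleic acid to repressed jasmonic acid signalling, fell at 30 min (-1.15) and was higher at 120 min (0.82). WRKY26 fell at 30 and 60 min (-0.72 and -0.63).

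WRKY39, a calmodulin-binding member with a role in heat tolerance, was lower in light. WRKY39 was at 2.97 FPKM in C0, at 2.68 in P0, and at 30, 60 and 120 min of cold at 2.68, 3.3 and 3.22 in control plants and 3.86, 3.47 and 3.6 in primed plants. Under high light, WRKY39 was at 1.86, 1.57 and 2.04 FPKM in control plants and 1.71, 1.58 and 1.71 in primed plants. All of its light libraries were below all of its untriggered and cold libraries, and it fell at 30 and 60 min (-0.68 and -0.92). AT1G64140 moved the other way. It stood between 31.9 and 36.5 FPKM in the 8 untriggered and cold libraries and between 47.6 and 68.6 in the 6 light libraries, with no overlap. How many of all genes separate light from the other libraries in this way was not counted. WRKY19, whose protein joins a WRKY domain to resistance-protein and kinase domains, rose in C60L alone (0.78). WRKY19 was at 3.51 FPKM in C0, at 3.64 in P0, and at 30, 60 and 120 min of cold at 2.8, 2.97 and 2.53 in control plants and 2.77, 2.74 and 2.14 in primed plants. Under high light, WRKY19 was at 2.49, 6.01 and 3.46 FPKM in control plants and 2.79, 3.69 and 4.23 in primed plants. C60L was its single high library.

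Some members responded to neither trigger. WRKY2, WRKY20, WRKY21, WRKY32, WRKY57 and WRKY69 stayed inside 1.5-fold of C0 at all 3 times of both triggers (6 of 38, compared with 52.1% of all genes). WRKY57, known from drought tolerance and jasmonic acid-induced senescence, was the most abundant group IIc member. WRKY57 was at 9.94 FPKM in C0, at 7.68 in P0, and at 30, 60 and 120 min of cold at 9.37, 10.4 and 10.4 in control plants and 9.6, 9.85 and 9.57 in primed plants. Under high light, WRKY57 was at 9.31, 9.87 and 11.02 FPKM in control plants and 11.2, 10.3 and 10.8 in primed plants. Its lowest library was P0 and its highest P30L. WRKY2 ranged from 2.85 to 4.04 FPKM.

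**Figure D4:**
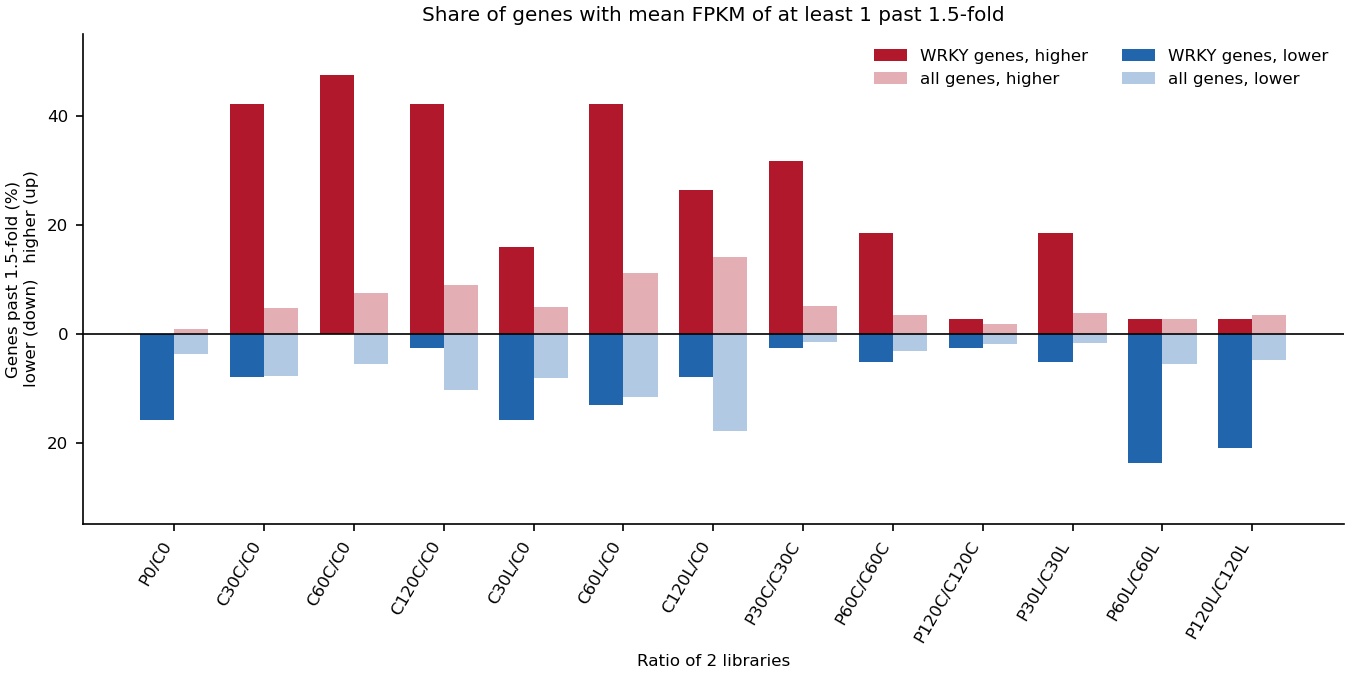
Share of genes past 1.5-fold in 13 ratios of 2 libraries, in percent, with higher genes drawn upwards and lower genes downwards. Dark bars are the 38 WRKY-named genes and pale bars all genes with a mean of at least 1 FPKM. The largest WRKY shares are the higher ones in C60C (18 of 38), C30C, C120C and C60L (16 each).

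Before triggering, 5 d after priming, no member was higher in primed plants and 6 were lower (P0/C0; all genes 0.858% and 3.74%). They were WRKY51 (-1.04), TTG2 (-0.90), WRKY30 (-0.82), WRKY8 (-0.67), WRKY54 (-0.66) and WRKY25 (-0.65). The median of the 38 was -0.17 and that of all genes -0.05, and 9 of the 38 ratios were above 0. The level in P0 was 0.54 FPKM for WRKY51, 2.22 for TTG2 and 1.44 for WRKY8, so that these ratios rest on weak transcripts. Beside them TCH3, 1 of 3 touch-responsive genes that were followed as markers of handling, was also lower (-0.62), and its part in the result was not tested.

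The next question was whether the response to cold differed after priming, and most of the differences were higher levels in primed plants at 30 and 60 min. The ratio P/C at the same time was past 1.5-fold for 16 of the 38 members at 1 or more times of cold (all genes 12.05%), with 13 higher (8.29%) and 4 lower (4.79%). At 30 min 12 were higher and 1 was lower (all genes 5.06% and 1.47%), at 60 min 7 were higher and 2 lower (3.47% and 3.16%), and at 120 min 1 was higher and 1 lower (1.77% and 2.01%). The median of the 38 went from 0.28 over 0.09 to -0.01, beside 0.07, 0.02 and 0.00 for all genes. Without the 30 min libraries 10 members differed in place of 16. Scaling by the median ratio or by the 8 reference genes left 13, with 10 higher and 1 lower at 30 min in both. At 60 min these scalings gave 6 and 5 higher, respectively, and 2 lower in both. Of the 32 members that pass the study's filter, 7 were higher in P30C and 1 was lower. Higher at 2 or more times of cold were 6 of 38 members (all genes 1.73%), namely WRKY38, WRKY50, WRKY51, WRKY53, WRKY54 and WRKY70.

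All 6 measured group III members were higher in P30C than in C30C (median 0.79). WRKY38 was at 1.55 at 30 min, 1.08 at 60 min and 0.15 at 120 min, the largest mean ratio in cold among members with a mean of at least 2 FPKM and 1 sign at the 3 times. WRKY70 was at 0.75 and 0.72, WRKY54 at 0.82 and 0.74, and WRKY53 at 0.73 and 0.65 at 30 and 60 min. None of these 3 differed by 1.5-fold at 120 min (-0.01, -0.34 and -0.55). WRKY46 was higher at 30 min (0.77). WRKY30, an SA- and oxidative-stress-induced member, went from 0.86 at 30 min to -1.12 at 120 min.

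Among the 38 members with ratios, WRKY51 showed the largest ones of primed to control plants in cold (1.65 and 1.74 at 30 and 60 min), though at low levels. WRKY51 was at 1.11 FPKM in C0, at 0.54 in P0, and at 30, 60 and 120 min of cold at 1.61, 1.37 and 1.46 in control plants and 5.05, 4.57 and 1.15 in primed plants. Under high light, WRKY51 was at 0.5, 0.92 and 1.96 FPKM in control plants and 1.53, 0.76 and 0.99 in primed plants. P30C and P60C were its only libraries above 2 FPKM. WRKY50 was at 1.21 FPKM in C0, at 1.02 in P0, and at 30, 60 and 120 min of cold at 1.73, 1.22 and 0.68 in control plants and 3.58, 2.27 and 1.16 in primed plants. Under high light, WRKY50 was at 1.21, 1.08 and 2.23 FPKM in control plants and 2.1, 1.62 and 1.45 in primed plants. WRKY50 was higher in primed plants at all 3 times of cold (1.05, 0.90 and 0.77). Both proteins carry a variant of the family's heptapeptide, as does the nearly silent WRKY59. In the translated TAIR10.1 coding sequences these were the only 3 such members, while 52 members held 1 exact copy and 11 members, all of group I, held 2.

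The ratio of WRKY18 in primed to control plants was negative at all 3 times of cold, past 1.5-fold at 60 min (-0.83) and within it at 30 and 120 min (-0.37 and -0.53). WRKY18 was already at -0.50 in P0/C0, and with P relative to P0 and C relative to C0 these ratios were 0.13, -0.33 and -0.03, none past 1.5-fold. WRKY40 was at 0.18, -0.35 and -0.21, and WRKY60 was higher at 30 min (0.62). WRKY17 was higher at 30 min (1.03), with P30C near C0. WRKY21 and WRKY39 had mean ratios of 0.32 and 0.25 in cold, with 1 sign at the 3 times and no call. TTG2, a regulator of trichomes and seed coat also known as WRKY44, was lower in P30C. TTG2 was at 4.13 FPKM in C0, at 2.22 in P0, and at 30, 60 and 120 min of cold at 3.65, 5.02 and 3.05 in control plants and 2.07, 3.96 and 2.88 in primed plants. Under high light, TTG2 was at 2.89, 2.74 and 4.93 FPKM in control plants and 2.77, 2.66 and 2.74 in primed plants. Its values in C0, C60C and C120L were high and those in P30C and P0 low. With P relative to P0 and C relative to C0, the P30C ratio of TTG2 was 0.08 in place of -0.82.

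**Figure D5:**
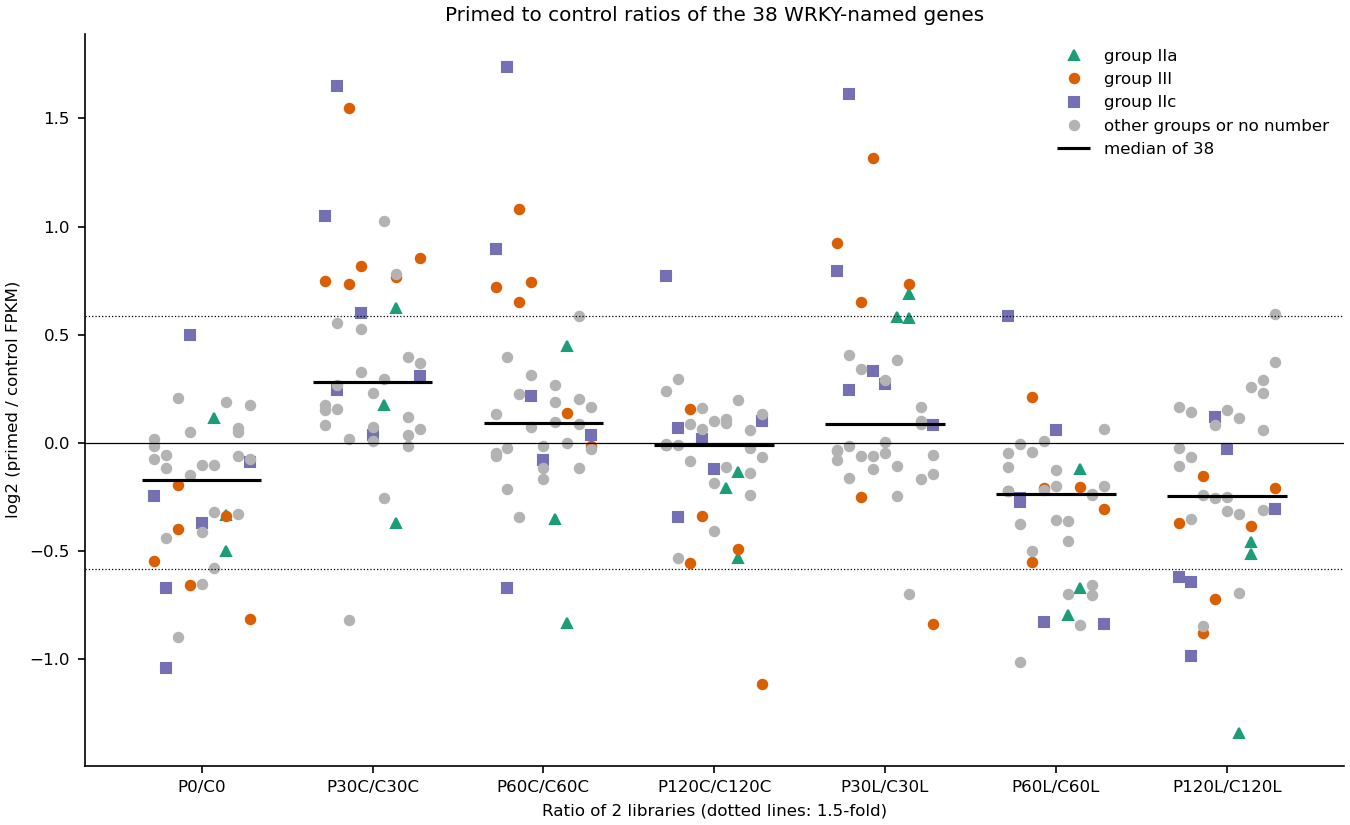
Log2 ratio of primed to control FPKM for the 38 genes before triggering and at 30, 60 and 120 min of cold and of high light. Each symbol is 1 gene, black bars are medians of the 38, and dotted lines mark 1.5-fold. Group III symbols all lie above the upper line at P30C/C30C, and the medians lie at -0.24 and -0.25 in the last 2 light comparisons.

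In high light the differences between primed and control plants changed sign with time. Past 1.5-fold at 1 or more times were 21 of the 38 members (all genes 15.96%), with 8 higher (8.29%) and 17 lower (9.68%). At 30 min 7 were higher and 2 lower (all genes 3.68% and 1.68%), at 60 min 1 was higher and 9 lower (2.65% and 5.62%), and at 120 min 1 was higher and 8 lower (3.39% and 4.92%). The median of the 38 was 0.09, -0.24 and -0.25, beside -0.01, -0.05 and 0.08 for all genes. After scaling by the 8 reference genes the 120 min split was 0 higher and 8 lower, and after scaling by the median ratio 0 and 9.

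At 30 min of light, WRKY51 (1.61), WRKY54 (1.32), WRKY70 (0.92), WRKY50 (0.80), WRKY46 (0.73), WRKY60 (0.69) and WRKY38 (0.65) were higher in primed plants. Relative to its own start, WRKY54 had fallen in C30L (-1.64) and was at 0.33 in P30L, while WRKY70 had fallen in C30L (-0.83) and risen in P30L (0.64). WRKY30 and WRKY27 were lower in P30L (-0.84 and -0.70), the reverse of their ratios at 30 min of cold (0.86 and 0.78). WRKY18 and WRKY40 were both at 0.58, just under the threshold.

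At 60 min several members that had risen in control plants were lower in primed plants. The 9 lower members were WRKY33 (-1.01), WRKY48 (-0.84), WRKY27 (-0.84), WRKY23 (-0.83), WRKY40 (-0.80), WRKY6 (-0.70), WRKY19 (-0.70), WRKY18 (-0.67) and WRKY47 (-0.66). All of these except WRKY27 and WRKY47 had risen in C60L over C0. Both sets of ratios use the C60L library, so that a high value there moves both. WRKY50, exactly at 1.5-fold, was the 1 higher member.

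At 120 min WRKY40 had the largest difference among the 38 members with ratios (-1.34). WRKY51, WRKY38, TTG2, WRKY54, WRKY26, WRKY8 and WRKY50 were also lower, between -0.99 and -0.62. WRKY7 was the 1 higher member (0.60). WRKY6 and WRKY53 had the lowest mean ratios over the 3 times of light among members with a mean of at least 2 FPKM and 1 sign throughout (-0.42 and -0.32), followed by TTG2 (-0.32) and WRKY4 (-0.14). Of these 4, WRKY53 and WRKY4 passed 1.5-fold at no time of light. WRKY27 and WRKY40 were the 2 of the 38 members lower at 2 times, and the share of all genes lower at 2 times was not counted.

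Because P0 was below C0 for many members, the comparison was repeated with P relative to P0 and C relative to C0. In cold 18 members were then higher and none lower at 30 min (all genes 9.99% and 1.297%), 11 and none at 60 min (7.43% and 2.35%), and 5 and none at 120 min (5.46% and 1.87%). In light 14 were higher and 1 lower at 30 min (8.22% and 1.99%), 3 and 6 at 60 min (5.69% and 5.09%), and 2 and 2 at 120 min (6.99% and 3.48%). The lower values in P120L thus mostly lay within 1.5-fold on this scale, with WRKY38 and WRKY40 as the 2 exceptions. Of the 9 members lower in P60L, WRKY6, WRKY18, WRKY33 and WRKY47 also lay within it, as did WRKY30 in P120C and P30L and WRKY8 and WRKY18 in P60C. In these ratios WRKY51 was at 2.69, 2.78 and 2.65 in P30C, P60C and P30L. Relative to the control library of the same time and trigger they were 1.65, 1.74 and 1.61. All ratios on this scale share the P0 and C0 libraries, so that a low P0 value raises all ratios of a gene together. For WRKY51, P0 was at 0.54 FPKM and P0/C0 at -1.04.

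Over both triggers, 14 of the 38 members stayed inside 1.5-fold in all 7 ratios of primed to control plants, before triggering included (all genes 78.8%). Among them were WRKY11, WRKY15 and WRKY22, which had responded to the triggers, and the unresponsive WRKY2, WRKY20, WRKY21, WRKY32, WRKY57 and WRKY69. By highest library, 11 members peaked in P60C and 8 in P30C, against 4 each in C60C and C60L and 1 in C0. Of all genes with a mean of at least 1 FPKM, 5.42% peaked in P60C, 5.91% in P30C, 3.11% in C60C, 11.1% in C60L and 11.2% in C0. The FPKM of all 70 members added up to 298 in C0 and 250.1 in P0, to 490.5 in C30C and 628 in P30C, and to 599 in C60C and 626 in P60C.

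Of 190 pairs among the 20 members with a mean of at least 5 FPKM, the 5 most alike over the 14 libraries were WRKY33 with WRKY15 (r = 0.97), WRKY15 with WRKY22 (0.93), WRKY18 with WRKY25 (0.93), WRKY33 with WRKY22 (0.93) and WRKY33 with WRKY53 (0.92). These pairs cross the groups of the family. Related genes ranged from 0.86 for WRKY3 with WRKY4 over 0.75 for WRKY25 with WRKY33 and 0.69 for WRKY50 with WRKY51 to -0.38 for WRKY11 with WRKY17. All points share the same libraries.

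Upstream, 6 genes of the MAP kinase cascade that phosphorylates WRKY33 and other group I proteins were read at the transcript level. None of the 6 passed 1.5-fold in cold (all genes 27.3%) or between primed and control plants in cold (12.05%) or light (15.96%). Before triggering none did either (all genes 0.858% higher and 3.74% lower). So few genes allow no statement about the cascade as a whole. In light MKK4, a MAP kinase kinase, was higher at 60 min (0.86), and MEKK1 and MPK3 were lower at 120 min (-0.61 and -1.17). Of all genes, 40.2% passed 1.5-fold at 1 or more times of light.

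VQ proteins bind WRKY proteins and change their activity. SIB1, a partner of WRKY33, rose in cold by 1.20, 1.43 and 1.75 and was higher in primed plants in P30C (0.80), P60C (0.74) and P30L (1.00). Its relative SIB2 fell in cold at 60 and 120 min (-0.60 and -0.73) and was higher in P30C than in C30C (0.64). JAV1, a repressor of jasmonic acid-dependent defence, was lower in P0 (-1.11) and rose at 30 and 60 min of cold (0.83 and 0.94). MKS1, which links WRKY33 to the kinase MPK4, was past 1.5-fold once (-0.62 in P120L/C120L).

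Downstream, 10 genes of camalexin synthesis, SA synthesis and SA response were read as known WRKY targets or outputs, and 9 of them had a mean of at least 1 FPKM. In P30C 6 of the 9 were higher than in C30C and none was lower (median 1.49; all genes 5.06% and 1.47%). At 60 min of cold 3 were higher and 1 lower (all genes 3.47% and 3.16%), and at 120 min 1 was higher and 1 lower (1.77% and 2.01%). At 30 min of cold PR2 was at 26.2 FPKM in C30C and 127 in P30C, and PR5 at 62 and 188. PR1, the usual marker of SA responses, was at 35.8 and 101 in these 2 libraries. The camalexin genes PAD3 and CYP71A13 stood at 5.35 and 4.63 FPKM in P30C against 1.1 and 0.77 in C30C. SARD1, an activator of SA synthesis, was at 7.23 FPKM in P30C and 3.56 in C30C (ratio 1.02). In P60C/C60C, CYP71A13 was lower (-2.07) and PAD3 was at -0.49.

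Later in light some of the same genes were lower in primed plants. In P30L 4 of 9 were higher and none lower (all genes 3.68% and 1.68%), with PR1 at 53.5 FPKM against 1.47 in C30L. In P60L none was higher and 3 were lower (all genes 2.65% and 5.62%). In P120L none was higher and 6 were lower (all genes 3.39% and 4.92%), PR1 at -2.27 and PR2 at -1.39. Before triggering 4 of 9 were lower in P0 and none was higher (all genes 3.74% and 0.858%). They were PAD3 (-1.48) and CYP71A13 (-1.62), both below 2 FPKM, and SARD1 (-0.82) and CBP60G (-0.61). PAD3, CYP71A13 and CBP60G were the 3 lower in P60L, and PAD3, CYP71A13 and SARD1 were among the 6 lower in P120L. The ratios of these target and output genes were not repeated relative to P0. ICS1, which encodes the main enzyme of SA synthesis, stayed within 1.5-fold in all 7 ratios of primed to control plants, between -0.33 and 0.44.

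In P30C, the library with the most members above its control, 1 marker of leaf age was higher than in C30C and 1 was lower. The summed level of 5 genes of senescing leaves ranged from 11.3 (P120C) to 48.3 FPKM (P30C), with SAG13 at 30.6 in P30C and 13.5 in C30C. In the same ratio SAG29 was lower (-0.95), and ORE1 and NAP were each at -0.15. SAG12, the defining marker, was at or below 0.02 in both libraries. The phloem gene APL (0.79), the root gene SHR (0.77) and the floral gene AG (0.74) were higher in P30C than in C30C as well. APL and SHR were low in C30C (3.05 and 2.21 FPKM), at ratios to C0 of -0.80 and -0.72. In P30C they were near C0 (5.27 and 3.76 FPKM, against 5.32 and 3.65 in C0). AG stood at 2.64 FPKM in P30C, beside 2.66 in P0, 1.96 in C0 and 1.58 in C30C. APL was 1 of 3 phloem genes with a ratio, whereas SHR and AG were the 1 gene with a ratio in their lists of 4. The 3 touch genes, which had risen in C30C, differed little between P30C and C30C (0.02, 0.11 and -0.04). The part of the markers that moved was not tested. In light, touch genes fell at 120 min of control plants (median -1.70), where WRKY33 and WRKY15 also fell, and this was not tested either.

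The 32 members below a mean of 1 FPKM received no ratio. The members nearest the limit were WRKY23 (1.16) above it and WRKY65 (0.946) and WRKY62 (0.907) below it. Of the 32, 16 were below 0.1, 17 were listed at 0 in at least 1 library and 8 reached 1 FPKM in some library. WRKY42, a regulator of phosphate transport, reached 4.19 FPKM in P120C and 3.37 in C120C, against 0.2 in C0 and 0.29 in P0. WRKY65 was highest in P120C (2.42) and WRKY45, an activator of phosphate uptake, in C120L (1.81). WRKY75, known from phosphate starvation and senescence, reached 1.4 in P30C. WRKY43 and WRKY64 were listed at 0 in 13 of 14 libraries.

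Of the 70 names, 66 stand for numbered family members, TTG2 included, and 4 genes carry the word without a number. AT1G64140, AT4G31805, AT3G32090 and AT3G56390 had neither an exact nor a variant heptapeptide in their TAIR10.1 coding sequences, and AT3G32090 and AT3G56390 were listed at 0 in 12 libraries each. RefSeq names AT4G31805 POLAR, a protein of the stomatal lineage, and it lies beside WRKY18 on chromosome 4 (WRKY18 from 15382777 to 15385100, AT4G31805 from 15385280 to 15387097, TAIR10.1). It was highest in C0 (1.93 FPKM) and passed 1.5-fold once, in C30C. Neither AT1G64140 nor AT4G31805 passed 1.5-fold between primed and control plants. In total 13 members overlap another annotated gene, among them WRKY40 (51 bases with AT1G80850, 5.23 to 11.1 FPKM) and WRKY69 (373 bases with AT3G58720, 1.89 to 6.38 FPKM), and their reads cannot be told apart there.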

How the data were processed

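RNA-seq of 14 libraries, 1 per condition and without replicates, was used as deposited. The authors' table gives FPKM for 27861 genes on TAIR10, per the methods from Bowtie2 and RSEM, whereas the submitters' processing notes name HISAT2 2.1.0. Libraries were enriched for mRNA with oligo(dT). The paper reports read numbers and alignment rates per sample, which were not used here. The strand use of the counting is not given in the sources used here. Normalization to library size makes each FPKM depend on the other genes of its library, so that scaling was varied.

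Members are all genes with WRKY in the table's gene name. Members and gene lists were chosen with earlier results of these data known. Log2 ratios of FPKM were taken without pseudocount for genes with a mean of at least 1 FPKM, and 1.5-fold was the threshold, as in the study. Ratio counting was tested on simulated data. No test between conditions was run, as each has 1 library. Values in all libraries are given for the 10 members with the widest log2 range among those with a mean of at least 5, the most abundant member of each group, up to 4 members per direction with the largest mean P/C ratio and 1 sign in cold or light (mean of at least 2; none was higher in light), and the IIa and SA-linked members, with further members added after their values were seen. As alternatives, the threshold was set to 2-fold, 1 FPKM was added as a pseudocount, and other choices were the study's filter, no filter, 2 scalings, each group's own start, and leaving out a time. Promoters (250 bases) and coding sequences were read from the RefSeq annotation of TAIR10.1 with Python 3.11.15, NumPy 2.4.6, pandas 2.3.3 and Biopython 1.88, and figures were drawn with matplotlib 3.10.9.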

Additional observations from a re-analysis of the deposited data

Results flagged for a closer look

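The members below passed 1.5-fold in opposite directions in cold and in high light at the same time. Values are the log2 ratio in cold minus that in light, and none of these differences was tested, since each rests on single libraries.

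In control plants at 30 min, WRKY54 differed by 2.67 (1.03 in cold and -1.64 in light), WRKY70 by 1.89 (1.05 and -0.83), WRKY38 by 1.81 (1.03 and -0.78) and WRKY26 by 1.503 (0.79 and -0.72). Of these, 3 are group III genes of salicylic acid signalling and WRKY26 is a group I gene of the heat response. At 60 min WRKY54 differed by 1.95 (1.36 and -0.59) and WRKY26 by 1.71 (1.07 and -0.63). At 120 min WRKY33 differed by 1.48 (0.72 and -0.75), and WRKY50 by -1.71 (-0.83 and 0.88), with 0.68 FPKM in C120C and 2.23 in C120L. These ratios all share the C0 library.

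For primed against control plants, WRKY30 differed by 1.69 (0.86 in cold and -0.84 in light) and WRKY27 by 1.48 (0.78 and -0.70) at 30 min, WRKY47 by 1.25 (0.59 and -0.66) at 60 min and WRKY50 by 1.39 (0.77 and -0.62) at 120 min. WRKY27, WRKY30, WRKY47 and WRKY50 had means of 1.78, 1.88, 2.18 and 1.61 FPKM.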

How the results depend on the processing

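No paired analysis was possible because the groups share a single replicate number, with 1 library each. A fit over the 7 pairs of primed and control libraries, which differ in trigger and time, was not run. A 2-fold threshold lowered the number of members past it from 25 to 15 in cold, from 27 to 13 in light, from 6 to 1 before triggering, and between primed and control plants from 16 to 5 in cold and from 21 to 4 in light. The share of all genes was not counted at 2-fold, nor with the other filters, the pseudocount or the scalings. Counts under these settings therefore show only how the member counts moved, and cannot be set against all genes. With no filter on the mean these numbers were 43, 46, 17, 32 and 40, since weak members were added. The study's filter (mean of at least 2 FPKM, at least 0.5 in C0 and P0) left 32 members, with numbers of 20, 22, 4, 11 and 16. In P30C/C30C it gave 7 higher and 1 lower, in place of 12 and 1, and a pseudocount of 1 FPKM gave 8 and 1. A pseudocount of 1 FPKM left 1 member before triggering and 10 between primed and control plants in light. Leaving out the 30 min libraries left 10 in cold in place of 16 between primed and control plants.

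Of 158 single ratios past 1.5-fold, a pseudocount kept 101, scaling by the median ratio 151 and scaling by 8 reference genes 146, and the scalings added 7 and 10. None of the 158 changed direction under these. From each group's own start, 35 of 52 ratios of primed to control plants were kept, 13 lost, 4 turned and 27 gained. The 4 that turned were TTG2 P30C/C30C (0.0773 in place of -0.82), TTG2 P120L/C120L (0.0482, -0.85), WRKY8 P120L/C120L (0.0257, -0.64) and WRKY51 P120L/C120L (0.0542, -0.99), and all 3 genes had been lower in P0 than in C0. The 13 that were lost were WRKY23 in P30C, WRKY8 and WRKY18 in P60C, WRKY30 in P120C and P30L, WRKY6, WRKY18, WRKY33 and WRKY47 in P60L, and WRKY7, WRKY26, WRKY50 and WRKY54 in P120L.

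Per time, a 2-fold threshold gave 9 higher and 1 lower in C30C, 13 and 0 in C60C, 7 and 0 in C120C, 2 and 2 in C30L, 9 and 0 in C60L and 2 and 1 in C120L. For primed against control plants it gave 4 and 0 in P30C, 2 and 0 in P60C, 0 and 1 in P120C, 2 and 0 in P30L, 0 and 1 in P60L and 0 and 1 in P120L. Scaling by the median ratio shifted C30C/C0 by 0.12, and reference gene scaling shifted C120L/C0 by -0.12 and P60C/C60C by -0.11. For weak members, and for values near 1.5-fold such as WRKY30 in C30C, single libraries allow no statement beyond the ratio itself.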
